A study of Mus musculus with 12 samples.

Results

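Interneurons of the cerebral cortex are inhibitory GABAergic neurons that are born outside the cortex, in the ganglionic eminences of the embryonic ventral forebrain, and then migrate tangentially into it. The caudal ganglionic eminence (CGE) gives rise to interneurons that carry the transcription factors Sp8, Prox1 and Nr2f2 and the serotonin receptor Htr3a, among them the VIP, calretinin and reelin cells of the superficial layers. Newborn interneurons leave the cell cycle in the germinal zone, travel under the control of guidance receptors such as neuropilins and Eph receptors, and acquire synapses and adult firing properties only after birth.

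The samples described are CGE cells that had been sorted while migrating in the mouse embryonic cortex, at E16.5 (3 arrays) and at E18.5 (3 arrays). They are 6 of the 12 arrays of the series. Members were all genes with a probe set of a single symbol, of which 8791 passed the filter on low values out of 11358 symbols in the table. The embryos carried Nkx2-1-Cre together with a Dlx1-lox-Venus-lox reporter, on a mixed C57BL/6 and CBA background and of both sexes. In such embryos Dlx1-expressing cells make the fluorescent protein Venus and Nkx2-1-Cre deletes it from cells of the medial ganglionic eminence (MGE), so that the sorted fraction holds Dlx1 cells of lateral as well as caudal origin. The same alleles were present at both ages. The other 6 arrays were MGE cells from Nkx2-1-Cre;R26R-YFP embryos at E14.5 and E18.5, also 3 each, and are used here for the shared estimate of the spread and to ask whether a change was different in CGE cells. Embryos were pooled, in a number per array that neither the labels nor the methods state. The array titles name them biological replicas, and the methods call the replicates independent.

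Values are log2 intensities of Affymetrix Mouse430_2 arrays, as the authors normalised them, and a difference of 1 is a 2-fold change. The arrays had medians of 7.75 to 7.81. A value near 7.1 (7.10 to 7.17, the 40th percentile of an array) was the level used as the filter, and a difference that reaches below it may be understated. A gene was called when its adjusted p from limma was under 0.05. Because RNA of a sorted pool was measured, fewer cells of a type and less RNA per cell cannot be told apart.

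Of the genes of the CGE lineage, Sp8 and Adarb2 set the CGE arrays apart from the MGE arrays. Sp8 read 11.78, 11.94 and 12.03 at E16.5 and 11.84, 12.25 and 11.97 at E18.5, against means of 4.31 ± 0.11 and 4.54 ± 0.07 (SD, n = 3 arrays each) in MGE cells at E14.5 and E18.5. Adarb2, an RNA-editing family gene of the CGE lineage, averaged 9.41 ± 0.36 and 9.07 ± 0.31 in CGE cells and 4.40 ± 0.11 and 4.56 ± 0.28 in MGE cells. Lhx6, which marks MGE interneurons, was not absent from CGE cells. It lay between 10.24 and 11.33 on the 6 arrays, against 12.91 ± 0.09 and 12.62 ± 0.17 in MGE cells. Prox1 was not confined to CGE cells, since it rose by 4.47 in MGE cells from E14.5 to E18.5. Over 13 measured genes of the lateral eminence, striatum and olfactory neurons the mean level was 7.54 to 9.76 on the CGE arrays. On the MGE arrays it was 6.57 to 7.07. Caudal and lateral origin were not told apart by these genes. Transcripts of Nkx2-1 and Vip were not analysed here.

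Arrays of the same age did not agree equally well. Within an age, pairs of CGE arrays correlated at r = 0.973 to 0.982 over all probe sets, but E18.5 replicate 1 correlated at 0.972 and 0.973 with E16.5 replicates 1 and 2 although they differ in age. On the second principal component, which held 28.5% of the variance, the E16.5 arrays lay at 6.4, -4.7 and -11.9 and the E18.5 arrays at 21.5, 40.7 and 25.9, so E16.5 replicate 3 and E18.5 replicate 2 were the farthest apart. The Y-linked genes Kdm5d and Eif2s3y read 4.22 and 3.95 on E16.5 replicate 3 and between 8.37 and 10.80 on the other 5 CGE arrays. Neither the labels nor the methods state the sex of the embryos on each array.

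From E16.5 to E18.5, 397 genes were higher (4.52% of those tested) and 562 were lower (6.39%). Of these, 225 rose at least 2-fold (2.56%) and 136 fell at least 2-fold (1.55%). The 2-fold counts were 66 higher and 73 lower with the 6 CGE arrays alone, 48 and 44 without both E16.5 replicate 3 and E18.5 replicate 2, and 207 and 189 without E18.5 replicate 3, so the excess of increases depended on the arrays used. The median over all genes was -0.07. When each array was centred on its median the calls were 475 higher and 420 lower, so that 53.1% of calls were higher instead of 41.4%. On 2245 genes (25.5%) the 3 arrays of an age did not overlap those of the other age, 812 with E18.5 above (9.24%) and 1433 with E18.5 below (16.3%). The counts of called genes, 397 higher and 562 lower, rested on single arrays. Without E16.5 replicate 3 they were 149 higher and 225 lower, without E16.5 replicate 2 they were 260 and 419, and without E18.5 replicate 2 they were 189 and 281. Fitted on the 6 CGE arrays alone, with no help from the MGE arrays, they were 75 and 100.

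**Figure D1:**
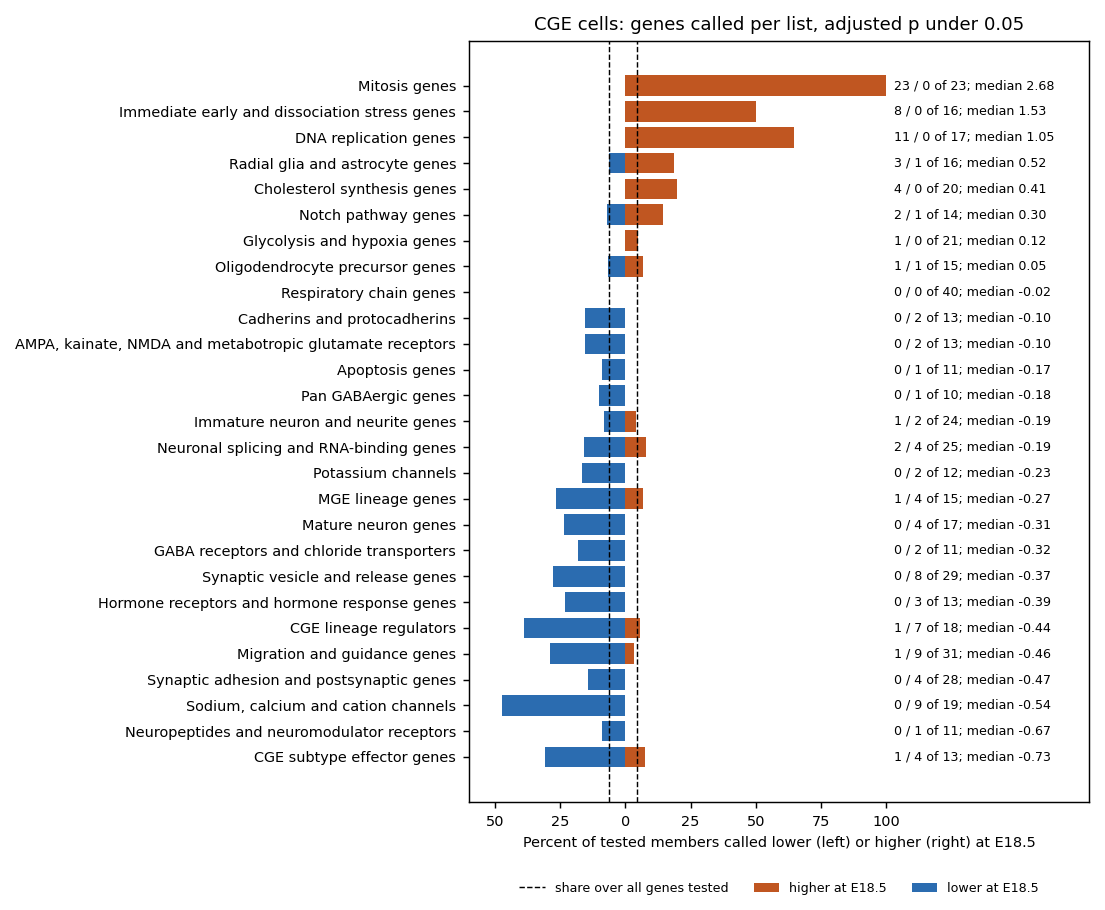
For each gene list with at least 10 tested members, bars show the percent of tested members called higher (right, orange) or lower (left, blue) in CGE cells at E18.5 than at E16.5; lists are ordered by median log2 change and dashed lines mark the shares over all genes, 4.52% higher and 6.39% lower. Mitosis genes (23 of 23 higher), DNA replication genes (11 of 17) and immediate early genes (8 of 16) lie on the right, and channel (9 of 19 lower), CGE regulator (7 of 18 lower) and CGE effector genes (4 of 13 lower) on the left. Some mitosis and immediate early genes passed the filter only through E18.5 arrays.

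Genes of mitosis were higher at E18.5. All 23 tested members of the list of mitosis genes were called higher and 0 lower, against 4.52% of all genes, and their median change was 2.68, or 6.41-fold, against -0.07 over all genes. Aurkb lay below the filter level on every E14.5 and E16.5 array, and Ndc80, Nusap1 and Cenpf on all of these but E16.5 replicate 1. Such members passed the filter through E18.5 arrays, so the count called higher is favoured by the filter. Changes ran from 2.14 (Kif20a) to 3.16 (Cenpf), with adjusted p between 0.0036 and 0.0293, and the arrays of both ages did not overlap for any of the 23, where 9.24% of all genes had E18.5 above. Nusap1, a spindle microtubule-associated protein, read 8.23, 6.73 and 6.83 at E16.5 and 9.56, 10.66 and 9.62 at E18.5, a rise of 2.68 ± 0.40 (log2 difference ± SE, adjusted p = 0.0036). Mki67, the Ki-67 proliferation antigen, read 10.85, 8.86 and 8.15 at the earlier age and 11.54, 12.56 and 11.79 at the later age (2.68 ± 0.52, adjusted p = 0.0103). The highest array of each age was the same for every member. E18.5 replicate 2 was the highest of the 6 for 23 of 23 genes, and E16.5 replicate 1 was the highest of its age for 23 of 23. The mean level over the measured members was 8.23, 6.57 and 6.33 at E16.5 and 8.99, 10.50 and 9.28 at E18.5.

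Members act at several steps of division. Aurkb, a kinase of the chromosomal passenger complex, rose by 2.76 ± 0.49 and its partner Birc5 by 2.91 ± 0.57. Ndc80, which links kinetochores to microtubules, read 7.50, 6.32 and 6.06 and then 8.38, 10.01 and 9.15 (2.55 ± 0.43, adjusted p = 0.00543). Kif20a, a kinesin of the central spindle, rose by 2.14 ± 0.36, and Cenpf, a kinetochore protein, by 3.16 ± 0.63. Cdk1, the kinase that drives entry into mitosis, rose by 2.45 ± 0.46, and Top2a, the topoisomerase that untangles replicated chromosomes, by 2.83 ± 0.58. Other genes of division stood among the 12 largest increases of called genes whose arrays did not overlap between ages. Spc25, a partner of Ndc80, had a mean of 6.42 ± 1.54 (SD, n = 3) and then read 9.45, 10.14 and 9.62, above the highest E16.5 array at 8.13 (3.32 ± 0.60, adjusted p = 0.00772). Spag5, a spindle protein, rose by 3.21 ± 0.57, Ect2, which positions the cleavage furrow, by 3.15 ± 0.59, Aspm, a spindle pole protein, by 3.13 ± 0.67, Cep55, a protein of abscission, by 3.11 ± 0.71, Shcbp1 by 2.94 ± 0.44 and Pclaf, which binds the replication clamp, by 2.95 ± 0.57. The 5 probe sets of Aspm ranged from 3.10 to 3.36.

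How many of these genes were called depended on the arrays in the fit. With the 6 CGE arrays alone 2 of 23 mitosis genes were called, and without both E16.5 replicate 3 and E18.5 replicate 2 there were 4, with a median of 1.82. Without E16.5 replicate 3 there were 14, and without E18.5 replicate 2 there were 17.

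Replication genes moved with them, by less. Of 17 tested genes of DNA replication 11 were higher and 0 lower, against 4.52% and 6.39% of all genes. The median was 1.05, and all 17 differences were positive, as were 3529 of the 8791 over all genes. Mcm3 lay below the filter level on every E14.5 and E16.5 array but E16.5 replicate 1 and passed the filter through E18.5 arrays. The counts of higher and positive members are therefore favoured by the filter. Rrm2, the small subunit of ribonucleotide reductase, read 10.80, 9.84 and 9.82 at E16.5 and 11.66, 12.54 and 12.02 at E18.5 (1.92 ± 0.27, adjusted p = 0.00288). Pcna, the sliding clamp, went from 11.55, 11.36 and 11.07 to 12.10, 12.50 and 12.16 (0.93 ± 0.15, adjusted p = 0.00479). The arrays of Rrm2 and Pcna did not overlap between ages. Mcm3, a subunit of the replicative helicase, rose by 2.28 ± 0.42, Gins2, another helicase component, by 1.53 ± 0.31, and the licensing factor Cdt1 by 1.93 ± 0.39. Mcm6 (0.31), Rfc3 (0.42) and E2f1 (0.49) were not called. Without E16.5 replicate 3 the list had 4 members called higher, without E16.5 replicate 2 it had 7, without E18.5 replicate 2 it had 6, and with the 6 CGE arrays alone 3.

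**Figure D2:**
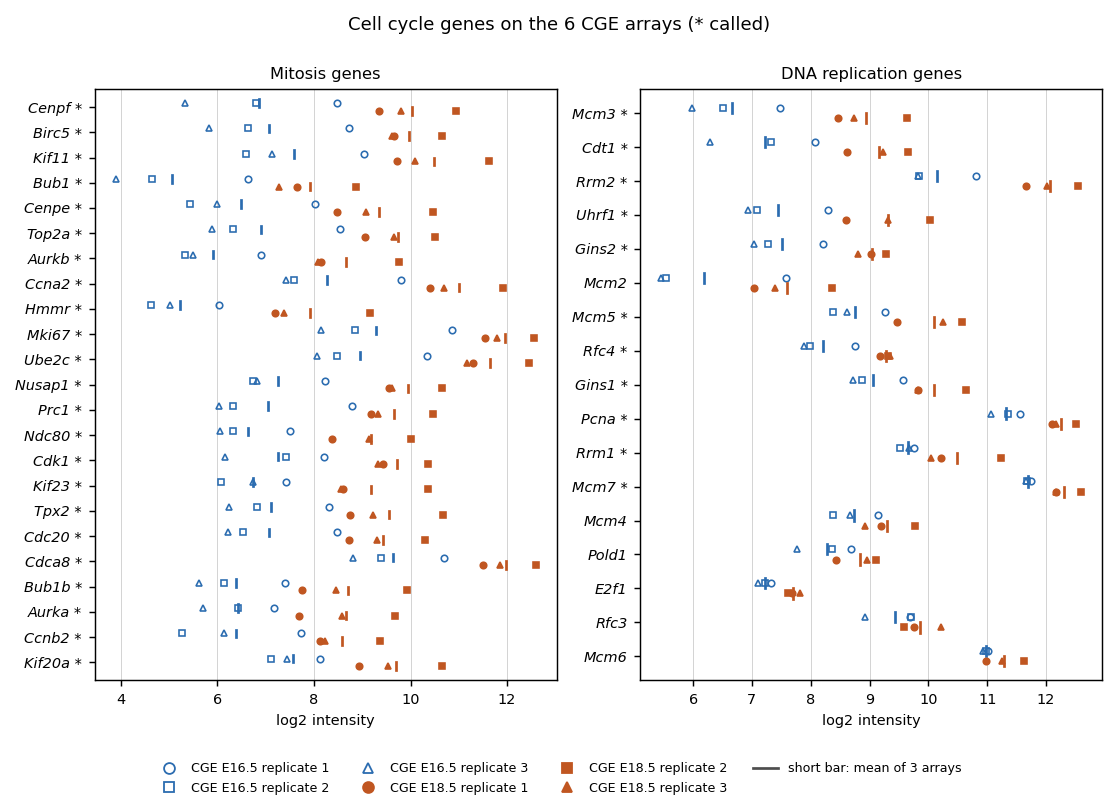
Log2 intensity (x axis) of each tested mitosis gene (left) and DNA replication gene (right) on the 6 CGE arrays, open blue symbols for E16.5 and filled orange symbols for E18.5, with the replicate given by the symbol's shape, the mean of 3 arrays as a short bar, and an asterisk for genes called. E18.5 replicate 2 (filled square) is the highest for 23 of 23 mitosis genes and E16.5 replicate 1 (open circle) is the highest of its age for all 23.

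Promoters of mitosis genes are known for a shared layout, in which CCAAT boxes lie upstream of a cell cycle homology region (CHR) close to the start. Because these genes moved together, the 250 bases before the start were searched on both strands for the letters of CCAAT and TTTGAA in RefSeq promoter windows (build GRCm38.p6), which 19 of the 23 tested mitosis genes and 7167 tested genes had. CCAAT was found in 16 of 19 (84.2%) against 37.1% of the tested genes with a window, and TTTGAA in 7 of 19 (36.8%) against 9.82%. Over all 27025 genes of the promoter table the shares were 34.5% and 16.3%. The E2F letters TTTNGCGC were in 1 of 19 (5.26%, against 2.36%). Of 14 replication genes with a window, CCAAT was in 10 (71.4%), TTTNGCGC in 3 (21.4%) and TTTGAA in 1 (7.14%). The 100 bases before the start are shown for 4 mitosis genes that hold both elements and for Nusap1, which holds neither in these bases, written 5′ to 3′ on the gene's strand with CCAAT (or ATTGG) and TTTGAA (or TTCAAA) in capitals. The windows are chr10:69352913-69353012 for Cdk1, chr11:99024190-99024289 for Top2a and chr4:118437344-118437443 for Cdc20 on the minus strand, and chr2:164769829-164769928 for Ube2c and chr2:119618198-119618297 for Nusap1 on the plus strand.
Cdk1: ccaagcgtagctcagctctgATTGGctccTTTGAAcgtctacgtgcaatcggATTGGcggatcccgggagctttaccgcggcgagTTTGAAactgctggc
Top2a: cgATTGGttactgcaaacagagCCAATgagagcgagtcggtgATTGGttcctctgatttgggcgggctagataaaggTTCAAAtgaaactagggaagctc
Ube2c: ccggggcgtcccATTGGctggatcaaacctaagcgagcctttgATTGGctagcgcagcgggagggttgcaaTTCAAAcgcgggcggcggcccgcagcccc
Cdc20: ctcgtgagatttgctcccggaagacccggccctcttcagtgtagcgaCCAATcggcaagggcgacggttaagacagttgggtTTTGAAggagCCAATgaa
Nusap1: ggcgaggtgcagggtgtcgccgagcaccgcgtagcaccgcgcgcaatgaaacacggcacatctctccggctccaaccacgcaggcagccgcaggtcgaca
Nusap1 rose by 2.68 and Ube2c by 2.68 ± 0.53, and Cdc20, the activator of the anaphase-promoting complex, rose by 2.36 ± 0.55. A match of letters describes the sequence and does not show binding.

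Immediate early genes held the 2 largest increases of all. Of 16 tested members of the list of immediate early and dissociation stress genes, 8 were higher and 0 lower, the median change was 1.53, and all 16 differences were positive. Egr2, Egr3 and Ier2 lay below the filter level on every E14.5 and E16.5 array and passed the filter only through E18.5 arrays. The counts of higher and positive members are therefore favoured by the filter. Egr2, a zinc finger transcription factor, read 4.23, 4.71 and 4.29 at E16.5 and 7.50, 9.85 and 8.26 at E18.5, a rise of 4.13 ± 0.52 (17.5-fold, adjusted p = 0.0017). Its other probe set rose by 2.84. Fosb, an AP-1 subunit, went from 4.50, 6.06 and 4.53 to 8.11, 8.85 and 9.09 (3.65 ± 0.84, adjusted p = 0.0194), and Egr1 from 9.87, 9.58 and 7.91 to 11.69, 13.15 and 11.96 (3.14 ± 0.52, adjusted p = 0.00494). For all 3 genes every E18.5 array lay above every E16.5 array. Egr3 rose by 1.99 ± 0.29, Ier2 by 1.79 ± 0.37, Btg2 by 1.60 ± 0.42, Klf6 by 1.40 ± 0.34 and the phosphatase gene Dusp1 by 0.90 ± 0.26. Fos itself read 9.99, 10.87 and 8.04 and then 11.14, 12.49 and 11.99 and was not called (2.24 ± 0.87, adjusted p = 0.126), nor was Jun (1.56 ± 0.60, adjusted p = 0.12). The constitutive chaperone gene Hspa8 differed by 0.01.

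These genes are known to respond to neuronal activity and also to enzymatic dissociation and sorting, and the cells of both ages were dissociated with papain and sorted. The part of the handling in these increases was not tested. E18.5 replicate 2 was the highest array for 13 of the 16. The list had 4 members called without E16.5 replicate 1, 3 without E16.5 replicate 3, 4 without E18.5 replicate 2 and 5 without E18.5 replicate 3. Egr1, Egr2 and Egr3 kept their calls under all 23 alternatives, and Fosb lost its call in 6 of them. The letters of the cyclic AMP element, TGACGTCA, were in 2 of the 12 list members with a promoter window (16.7%, against 3.04% of tested genes), and a CArG box, the binding sequence of serum response factor, was in 0 of 12 (against 1.07%).

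Genes of the CGE lineage mostly fell or did not pass the test. Of 18 tested regulators of the lineage 7 were lower and 1 was higher, against 6.39% and 4.52% of all genes, with a median of -0.44 against -0.07. Nr2f2, the nuclear receptor COUP-TFII, read 12.58, 12.61 and 12.69 at E16.5 and 11.69, 11.39 and 11.75 at E18.5, a fall of 2.03-fold (-1.02 ± 0.18, adjusted p = 0.00773). Its 4 other probe sets fell by 1.55, 1.72, 2.69 and 1.72. Npas3, a bHLH-PAS transcription factor, went from 11.72, 11.96 and 12.11 to 10.76, 10.35 and 10.99 (-1.23 ± 0.18, adjusted p = 0.0029), and the related Npas1 fell by 1.18. Prdm8, a histone methyltransferase-like factor, went from 9.45, 9.86 and 9.51 to 7.37, 8.06 and 8.17 (-1.74 ± 0.36, adjusted p = 0.0131). In each of these genes the ages did not overlap.

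Smaller falls were called for the orphan receptor Nr2e1 (-0.75 ± 0.13), for Id2 (-0.79 ± 0.20) and for Nr2f1, the COUP-TFI gene (-0.46 ± 0.12, adjusted p = 0.031), whose call was lost in 12 of 23 alternatives. Sp8 and Prox1 were not called. Sp8 differed by 0.10 ± 0.13 (adjusted p = 0.653) and Prox1, at 11.47, 12.02 and 12.06 and then 11.37, 11.39 and 11.96, by -0.28 ± 0.19 (adjusted p = 0.381). The single regulator called higher was Tox3, an HMG-box gene, at 1.13 ± 0.26, with overlapping arrays. Without E16.5 replicate 2, or without E16.5 replicate 3, the list had 4 members lower and 0 higher.

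Of 13 tested effector genes of CGE subtypes, 4 were lower and 1 higher, with a median of -0.73. Reln, the secreted glycoprotein reelin of superficial layer interneurons and of Cajal-Retzius cells, read 10.61, 10.83 and 11.17 at E16.5 and 8.03, 6.40 and 8.14 at E18.5, a 10.1-fold fall (-3.34 ± 0.39, adjusted p = 9.9e-04). Ndnf, which marks neurogliaform cells of layer I as well as Cajal-Retzius cells, went from 9.12, 7.68 and 8.24 to 4.45, 6.17 and 5.94 (-2.83 ± 0.46, adjusted p = 0.00479). Cxcl14, a chemokine gene, went from 9.42, 10.04 and 9.54 to 8.74, 6.18 and 8.02 (-2.02 ± 0.51, adjusted p = 0.0277), and its call was lost without E16.5 replicate 2 or replicate 3. Cbln2, a synaptic organiser, fell by 1.61 ± 0.24. The junction gene Jam2 was the member called higher (1.18 ± 0.30). Htr3a, at 12.10, 12.39 and 12.01 and then 11.79, 10.88 and 11.63, did not pass the test (-0.73 ± 0.25, adjusted p = 0.0833), and neither did Adarb2 (-0.34 ± 0.21), Cck (-0.21 ± 0.31) or Npy (0.51 ± 0.45).

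E18.5 replicate 2 was the lowest of the 6 arrays for 10 of the 13 effector genes. Reln and Ndnf are also Cajal-Retzius genes. Of that list of 9, only these and Cacna2d2 were tested, and Cacna2d2 differed by 0.14. Over the 5 measured members the summed level of the Cajal-Retzius list lay between 11.43 and 11.77 at E16.5 and between 9.69 and 10.55 at E18.5. The part of such cells in the falls of Reln and Ndnf was not tested.

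**Figure D3:**
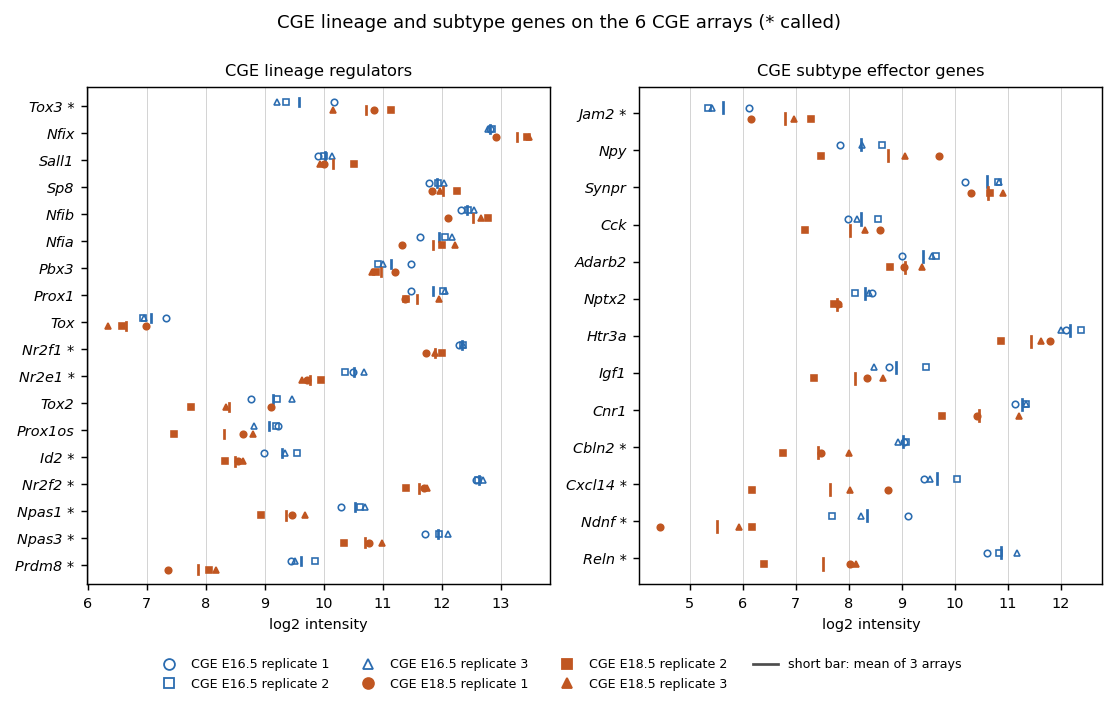
Log2 intensity (x axis) of tested CGE lineage regulators (left) and CGE subtype effector genes (right) on the 6 CGE arrays, with open blue symbols for E16.5, filled orange symbols for E18.5, shape for the replicate, a short bar for the mean of 3 arrays and an asterisk for genes called. Reln, Ndnf, Prdm8, Npas3 and Nr2f2 separate the ages, while the symbols of Sp8 and Prox1 overlap.

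Of 10 tested genes of general GABAergic identity, which include the Dlx factors and the GABA-synthesising enzymes, 0 were higher and 1 was lower, with a median of -0.18 and 2 positive differences. Their summed level was 15.23 to 15.33 at E16.5 and 15.11 to 15.19 at E18.5, without overlap. Gad1 differed by -0.17 and Gad2 by 0.05, and Dlx1, whose locus carries the sorting reporter, read 12.57, 12.62 and 12.58 and then 12.26, 12.45 and 12.26 (-0.26 ± 0.12, adjusted p = 0.171). The vesicular GABA transporter gene Slc32a1 was the member called (-0.59 ± 0.17, adjusted p = 0.0455), and the call was lost in 17 of 23 alternatives and was not shared by its 3 other probe sets. Among genes of the MGE lineage, 4 of 15 were lower and 1 was higher. Cbfa2t3, which encodes the co-repressor MTG16, went from 10.07, 10.27 and 10.73 to 9.32, 8.71 and 9.41 (-1.21 ± 0.20, adjusted p = 0.00549), with 3 other probe sets between -0.87 and -1.16. Runx1t1, which encodes MTG8, fell by 0.75 ± 0.17 (adjusted p = 0.0173), and Cbfa2t2, the remaining family member, differed by -0.11 ± 0.14. The fall of Runx1t1 did not pass without E16.5 replicate 3 or without E18.5 replicate 2, and the MGE list then had 2 members called lower in each case.

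Satb1, a chromatin organiser of maturing interneurons, fell by 0.59 ± 0.11 and Mef2c, a MADS-box factor, by 0.73 ± 0.20. Chodl, the MGE list member called higher, rose by 1.81 ± 0.49, with its call lost in 10 of 22 alternatives. It passed the filter only through the CGE arrays at E18.5, so its being called higher is favoured by the filter. Lhx6 differed by -0.12 ± 0.23. Sst varied too much between arrays to place, with means of 9.20 ± 0.94 and then 8.29 ± 1.52 (SD, n = 3) and a range of 6.76 to 9.80 at E18.5 (-0.91 ± 0.64, adjusted p = 0.394). The Rosa26 transcript Gt(ROSA)26Sor, from a locus that carries no reporter in these embryos, was 7.83, 7.75 and 7.88 and then 9.32, 9.19 and 7.81 (0.95 ± 0.30, adjusted p = 0.0639).

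Some ion channel and transmitter release genes fell, and most did not pass the test. Among 19 sodium, calcium and cation channel genes 9 were lower and 0 higher (6.39% and 4.52% of all genes), the median was -0.54, and 18 of the 19 differences were negative. Cacna2d3, an auxiliary calcium channel subunit, read 10.16, 10.03 and 10.18 at E16.5 and 8.77, 7.80 and 8.27 at E18.5 (-1.84 ± 0.27, adjusted p = 0.0034). Cacna1h, the pore of a T-type calcium channel, went from 9.10, 9.17 and 9.64 to 8.19, 8.14 and 8.34 (-1.08 ± 0.15, adjusted p = 0.00292), although its dimmer probe set differed by 0.12. Cacna1b, the N-type pore that triggers release, fell by 0.91 ± 0.15 and Scn3a, the sodium channel of embryonic neurons, by 0.85 ± 0.13. Fgf12 (-1.09 ± 0.19), which modulates sodium channels, Cacng2 (-1.08 ± 0.21), which encodes the AMPA receptor partner stargazin, and Trpc4 (-0.90 ± 0.17) also fell. Among 12 potassium channel genes, 4 of them with positive differences, 2 were lower, Kcnq3 (-0.90 ± 0.19) and Kcnc2 (-0.84 ± 0.22). Kcnq3 lay between 5.07 and 6.45 on the CGE arrays, below the filter level, and passed the filter only through MGE arrays at E18.5. The call of Kcnc2 was lost in 9 of 23 alternatives.

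The vesicle and release list had 8 of 29 members lower and 0 higher, with a median of -0.37 and 7 positive differences. Syt1, the calcium sensor of fast release, read 9.91, 10.11 and 10.19 and then 9.08, 8.47 and 8.64 (-1.33 ± 0.17, adjusted p = 0.00189). Sv2a, a vesicle glycoprotein, went from 9.50, 9.83 and 9.59 to 8.94, 8.70 and 8.79 (-0.83 ± 0.13, adjusted p = 0.00364). The active zone genes Pclo (-1.17 ± 0.21), Rims1 (-1.10 ± 0.28) and Bsn (-0.87 ± 0.18) and the complexin gene Cplx2 (-0.84 ± 0.17) fell as well. Snap25 (-0.23), Vamp2 (-0.34) and Syp (-0.45) were not called. With the 6 CGE arrays alone 5 channel and 3 release genes were called lower, and without both E16.5 replicate 3 and E18.5 replicate 2 there were 3 and 2. Without E16.5 replicate 3 alone the release list had 4 members called, and without E18.5 replicate 2 alone it had 5.

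Of 28 genes of synaptic adhesion and the postsynaptic density 4 were lower and 0 higher, with a median of -0.47. They were Cbln2, the neurexin family gene Cntnap4 (-1.56 ± 0.24), the adhesion gene Lrrc4 (-1.30 ± 0.20) and the secreted Lgi1 (-0.89 ± 0.17). Among 13 glutamate receptor genes, 2 fell. Grin2d, the NMDA receptor subunit typical of young interneurons, read 11.38, 11.39 and 11.51 at E16.5 and 9.33, 8.04 and 9.78 at E18.5 (-2.37 ± 0.34, adjusted p = 0.00301), and the kainate subunit Grik3 fell by 0.61 ± 0.12. The other subunits went both ways, from Grin2b (-1.09) to Grm5 (0.81), and were not called. GABA receptor and chloride transporter genes had 2 of 11 lower, and all 11 differences were negative. Gabra2 went from 9.16, 9.19 and 9.19 to 8.02, 7.40 and 7.70 (-1.47 ± 0.18, adjusted p = 0.0015), and Gabra3 (-1.32 ± 0.36) lost its call in 12 of 22 alternatives. Slc12a5, the chloride exporter KCC2, differed by -0.32 and was not called. Chrna7, the alpha7 nicotinic acetylcholine receptor, was the single one of 11 neuropeptide and neuromodulator genes called, and fell from 9.06, 9.32 and 9.01 to 7.20, 6.26 and 7.05 (-2.29 ± 0.22, adjusted p = 4.4e-04).

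**Figure D4:**
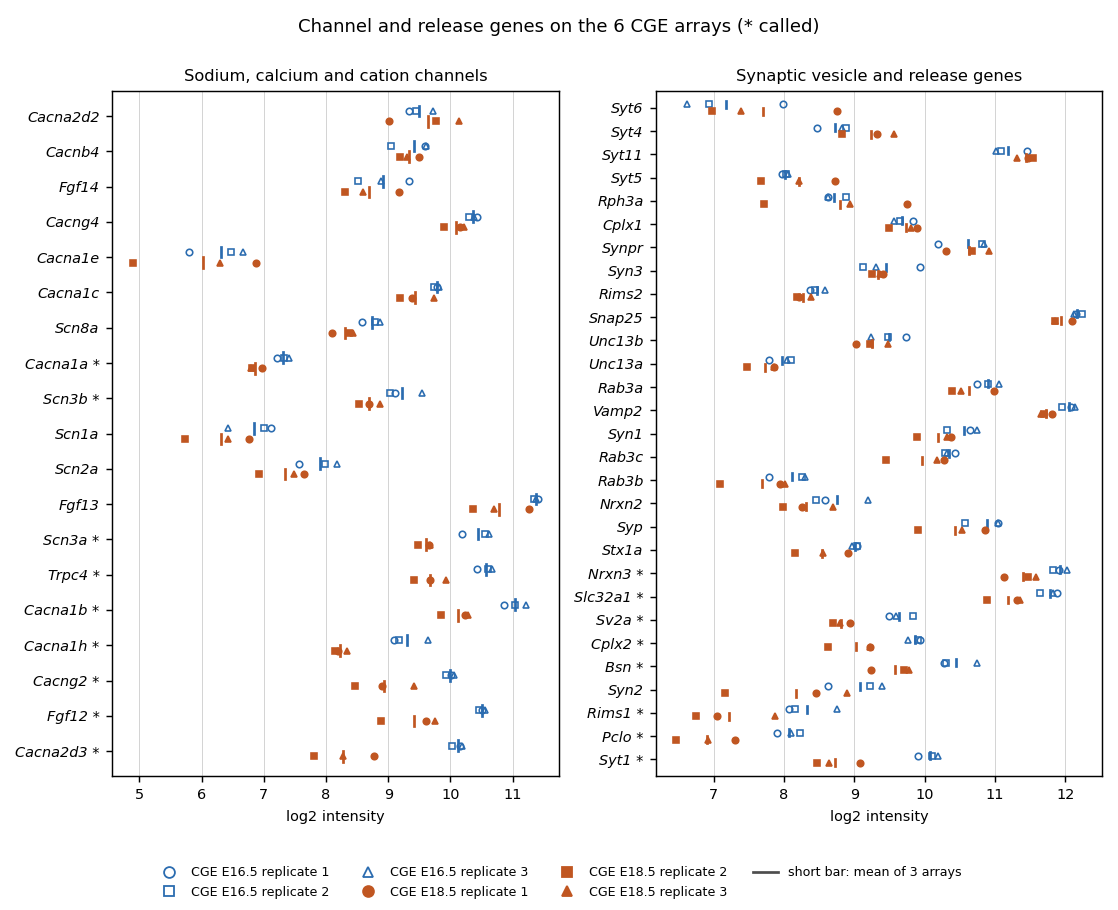
Log2 intensity (x axis) of tested sodium, calcium and cation channel genes (left) and of synaptic vesicle and release genes (right) on the 6 CGE arrays, with symbols as for the cell cycle genes and an asterisk for genes called. For Syt1, Cacna2d3 and Cacna1h the E18.5 arrays lie below all E16.5 arrays, and E18.5 replicate 2 (filled square) is the lowest of the 6 arrays for 15 of 19 channel and 20 of 29 release genes.

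Of 17 mature neuron genes 4 were lower and 0 higher, with a median of -0.31. Rbfox3, which encodes the NeuN antigen, read 9.94, 10.28 and 10.14 and then 9.11, 7.43 and 9.34 (-1.49 ± 0.38, adjusted p = 0.0284), and its 2 other probe sets fell by 1.17 and 1.06. The calcium pump gene Atp2b2 fell by 0.53 ± 0.13. E18.5 replicate 2, the array highest in mitosis genes, was the lowest of 6 for 15 of the 17. Without E16.5 replicate 2, or without E16.5 replicate 3, 2 of the 17 were called. Of 24 immature neuron and neurite genes 1 was called higher, the stathmin gene Stmn4 (0.64 ± 0.13). The 2 called lower were Mapt, which encodes tau (-0.80 ± 0.23), and Crmp1, a collapsin response mediator (-0.35 ± 0.10). The median was -0.19, against -0.07 over all genes, and 5 of the 24 differences were positive. For 12 of the 24 every E18.5 array lay below every E16.5 array, against 16.3% of all genes, and for 1 every E18.5 array lay above (9.24%). Their summed level was 17.45 to 17.52 at E16.5 and 17.31 to 17.35 at E18.5, a small fall without overlap. The calls of Mapt and Crmp1 were lost in 17 and 14 of 23 alternatives. Dcx differed by -0.19 and Tubb3 by -0.18. Neuronal splicing factors had 4 of 25 lower and 2 higher. Besides Rbfox3 these were Khdrbs2 (-1.32 ± 0.16), Nova1 (-0.75 ± 0.19) and Srrm4 (-0.52 ± 0.13) on the one side, and Khdrbs3 (0.77 ± 0.20) and Ptbp1 (0.79 ± 0.20), a repressor of neuronal exons, on the other.

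Of 31 migration and guidance genes, receptors as well as ligands, 9 were lower and 1 higher, with a median of -0.46. The largest fall of all called genes was in this list. Nrp2, the neuropilin that binds class 3 semaphorins and keeps interneurons out of the striatum, read 10.37, 9.91 and 10.46 at E16.5 and 7.40, 5.89 and 6.94 at E18.5, an 11.3-fold fall (-3.50 ± 0.30, adjusted p = 2.3e-04). Its second probe set fell by 2.17. Its relative Nrp1 fell by 1.28 ± 0.28, and Plxna1, a plexin co-receptor, by 1.00 ± 0.18. Epha3 went from 9.94, 9.86 and 9.78 to 8.77, 8.28 and 8.64 (-1.30 ± 0.15, adjusted p = 8.0e-04), and Epha5 fell by 0.85 ± 0.15. The neuregulin receptor Erbb4 (-0.99 ± 0.20), the BDNF receptor Ntrk2 (-0.88 ± 0.19) and the repellent Slit1 (-0.79 ± 0.19) were lower too, as was Cxcl14, described above. The chemokine receptors Cxcr4 (-0.50) and Ackr3 (-0.26) were not called. Tiam2, a Rac activator, was the member that rose (1.90 ± 0.31, adjusted p = 0.00479; its other probe set 0.86). Without E16.5 replicate 3 the list had 4 members called lower, and without E18.5 replicate 1 or replicate 3 it had 13.

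The remaining genes of the 12 largest decreases belonged to several families. Crb1, an apical polarity gene, read 7.48, 7.21 and 7.51 and then 5.18, 4.37 and 4.55 (-2.70 ± 0.18, adjusted p = 5.4e-05). Pcdh19, a protocadherin, went from 8.46, 8.80 and 9.44 to 6.77, 5.66 and 7.08 (-2.40 ± 0.33, adjusted p = 0.00265), with 2 other probe sets at -2.55 and -2.37, and was with Cdh4 (-1.30 ± 0.36) the only one of 13 cadherin family genes called. The kinase gene Stk33 (-2.14 ± 0.28), the sulphotransferase gene Chst15 (-2.04 ± 0.33), the proteoglycan gene Spock1 (-2.03 ± 0.37) and Thsd7a (-1.94 ± 0.26) completed them. For Ndnf, Crb1, Pcdh19 and Stk33 all 3 E18.5 arrays lay below the filter level, so their falls may be larger than measured. The same held at E16.5 for Egr2, Fosb, Spag5, Ect2 and Shcbp1 among the increases. G630016G05Rik, a transcript without an assigned function, read 7.84, 6.26 and 6.02 and then 9.15, 10.21 and 9.77 (3.01 ± 0.46, adjusted p = 0.00364).

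Markers of other cells that the sort could hold were examined beside these changes. Of 16 radial glia and astrocyte genes 3 were higher and 1 was lower, and the median was 0.52. Sox9, a glial and progenitor factor, read 9.13, 8.80 and 8.09 and then 9.75, 10.13 and 9.97 (1.28 ± 0.27, adjusted p = 0.0128), Fabp7, a radial glial lipid-binding protein, rose by 0.74 ± 0.15 and the glutamate transporter gene Slc1a3 by 0.98 ± 0.28, while Slc1a2 fell by 1.45 ± 0.27. Over the 18 measured members the summed level lay between 14.59 and 14.86 at E16.5 and between 14.99 and 15.06 at E18.5. The call of Slc1a3 was lost in 12 of 23 alternatives. Notch pathway genes, which act in progenitors, had 2 of 14 higher, Mfng (0.64 ± 0.12) and Maml2 (0.89 ± 0.23), and 1 lower, the ligand gene Jag1 (-1.20 ± 0.17). Notch1 (0.97, adjusted p = 0.0512) and Hey1 (1.28, adjusted p = 0.0584) did not pass.

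Few microglia genes could be tested. Those that passed the filter did so only through E18.5 arrays, since they lay below the filter level on every E16.5 and E14.5 array, so their being called higher carries no weight as a count. They were the cytokine receptor gene Csf1r (5.43 ± 1.27 and then 7.79 ± 0.58, SD, n = 3, with E18.5 arrays at 7.43, 8.46 and 7.47 above the highest E16.5 array at 6.41; 2.36 ± 0.56, adjusted p = 0.0218), Tyrobp (1.49 ± 0.35) and the complement gene C1qb (0.98 ± 0.25). Over 6 measured members of 14 the summed level was 7.70 to 8.40 at E16.5 and 9.05 to 10.20 at E18.5, and each of the 3 tested genes was highest on E18.5 replicate 2. Without that array, or without E16.5 replicate 3, none of these genes was called by limma. B2m, the light chain of class I antigen complexes, rose by 1.86 ± 0.38 while Tapbp, a loading factor, fell by 0.58 ± 0.10. LGE, striatal and olfactory neuron genes had 1 of 8 higher. That was Meis2, a homeobox gene of the lateral eminence, at 11.51, 9.50 and 9.28 and then 12.07, 12.36 and 11.67 (1.94 ± 0.53, adjusted p = 0.0395), with its call lost in 13 of 23 alternatives. Foxp2 read 9.52, 6.93 and 6.85 and then 9.70, 9.14 and 8.85 and did not pass (1.46 ± 0.56, adjusted p = 0.116). In both genes E16.5 replicate 1 was the highest array of its age, as it was for mitosis genes.

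Oligodendrocyte precursor genes had 1 of 15 higher and 1 lower, with a median of 0.05, and a mean level of 5.84 to 6.18 on the CGE arrays, below the filter level. Olig1 (1.03 ± 0.26) did not exceed 6.11 on any CGE array, and Tnr (-0.79 ± 0.20) did not exceed 5.15. Pallial glutamatergic genes had 0 of 4 called by limma in either direction, with Neurod2 at -1.28 (adjusted p = 0.111) and Neurod6 at -1.41 (adjusted p = 0.117). The haemoglobin gene Hba-a2 was bright and level, from 12.60 to 12.81, and the vascular gene Rgs5 (1.10 ± 0.41, adjusted p = 0.108) was at 7.93 on E18.5 replicate 3 and at most 6.28 on the other arrays. What these cells contributed to the cell cycle, immediate early and neuronal gene changes was not tested.

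None of 40 respiratory chain genes was called by limma, their median was -0.02 and their range -0.22 to 0.20. In 21 glycolysis and hypoxia genes the median was 0.12 and 1 was called, Adm, which encodes the peptide adrenomedullin. Adm read 7.21, 5.01 and 4.51 at E16.5 and 6.58, 9.87 and 10.74 at E18.5 (3.49 ± 1.02, adjusted p = 0.0486), so the ages overlapped, and the call was lost in 16 of 23 alternatives. Of 20 cholesterol synthesis genes 4 were higher and 0 lower, with a median of 0.41. Hsd17b7 (0.84 ± 0.16), Fdps (0.65 ± 0.15) and Idi1 (1.04 ± 0.26) encode enzymes of the pathway and Insig1 (1.04 ± 0.27) its feedback regulator. None of the 4 was called by limma with the 6 CGE arrays alone, and the list had 1 member called without E16.5 replicate 3 and 2 without E16.5 replicate 2 or E18.5 replicate 2. Among 13 hormone receptor and response genes, Fkbp5 (-0.82 ± 0.15), a glucocorticoid target, the thyroid hormone receptor gene Thra (-0.73 ± 0.14) and Igf1r (-0.53 ± 0.11) fell. Of 11 apoptosis genes the survival factor Bcl2 was the single one called (-0.62 ± 0.15).

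Whether a change was particular to CGE cells was asked by testing the difference between the change of MGE cells (E18.5 minus E14.5) and that of CGE cells (E18.5 minus E16.5). The MGE change spans a longer time, so lineage and span cannot be told apart. The difference was called for 758 genes (8.62%), with the MGE change above in 593 (6.75%) and below in 165 (1.88%). The mitosis list had 0 of 23 members called for the difference, with medians of 2.68 in CGE and 1.96 in MGE cells, and the immediate early list had 0 of 16, with 1.53 and 0.88. Oligodendrocyte precursor genes passed the filter mostly through the MGE arrays at E18.5, where their mean level was 10.19 to 10.88, against 5.84 to 6.18 on the CGE arrays, which is below the filter level, so a difference between lineages follows from the filter. Scrg1 went from 5.08 ± 0.25 to 10.87 ± 0.42 (SD, n = 3) in MGE cells and from 4.63 ± 0.22 to 5.28 ± 0.38 in CGE cells.

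Of the 12 largest decreases in CGE cells, 8 had a change that differed from MGE cells, and 3 were also called lower there. All 8 had the MGE change above, as 6.75% of all genes did. The 12 were picked for their CGE change, which is part of the difference, so the count of 8 is favoured by the choice. Nrp2 fell by 3.50 in CGE cells and went from 8.66 ± 0.06 to 8.12 ± 0.09 in MGE cells, a difference of 2.96 ± 0.42 (adjusted p = 8.4e-04). Crb1 (difference 2.48 ± 0.26), Chrna7 (2.41 ± 0.31), Grin2d (2.21 ± 0.48) and Thsd7a (2.59 ± 0.37) fell in CGE cells and were not called in MGE cells, where their changes were -0.22, 0.12, -0.16 and 0.65. On the MGE arrays Crb1 lay between 3.80 and 4.14 and Chrna7 between 6.39 and 6.87. Both ranges are below the filter level, so a fall in MGE cells could hardly have been seen for these 2 genes. Reln fell in both lineages (-3.34 in CGE and -2.89 in MGE cells), and so did Pcdh19 (-2.40 and -2.06). Cxcl14 had the largest difference (5.71 ± 0.72, adjusted p = 3.5e-04), since it fell in CGE cells and went from 4.69 ± 0.32 to 8.38 ± 0.47 in MGE cells. Tmem132d, Vit, Kcnj16 and Calcrl rose in MGE cells by 4.94 to 5.20, and all of their CGE values lay between 3.54 and 4.43. That is below the filter level, so these genes passed the filter only through MGE arrays. They were also picked for the size of the difference, which is therefore favoured by the filter and by the choice. In the other direction the gap junction gene Gjc1 rose by 0.84 ± 0.16 in CGE cells and fell by 2.76 in MGE cells (difference -3.61 ± 0.23, adjusted p = 2.3e-06). Kitl, the ligand of KIT, went from 9.10 ± 0.16 to 4.98 ± 0.74 in MGE cells and differed by 0.31 ± 0.38 (SE) in CGE cells. G630016G05Rik rose in CGE cells and differed by 0.11 in MGE cells (difference -2.90 ± 0.65, adjusted p = 0.015). It lay between 4.86 and 6.03 on the MGE arrays, and Kitl averaged below the filter level in CGE cells. A fall of either gene in those cells could hardly have been seen.

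**Figure D5:**
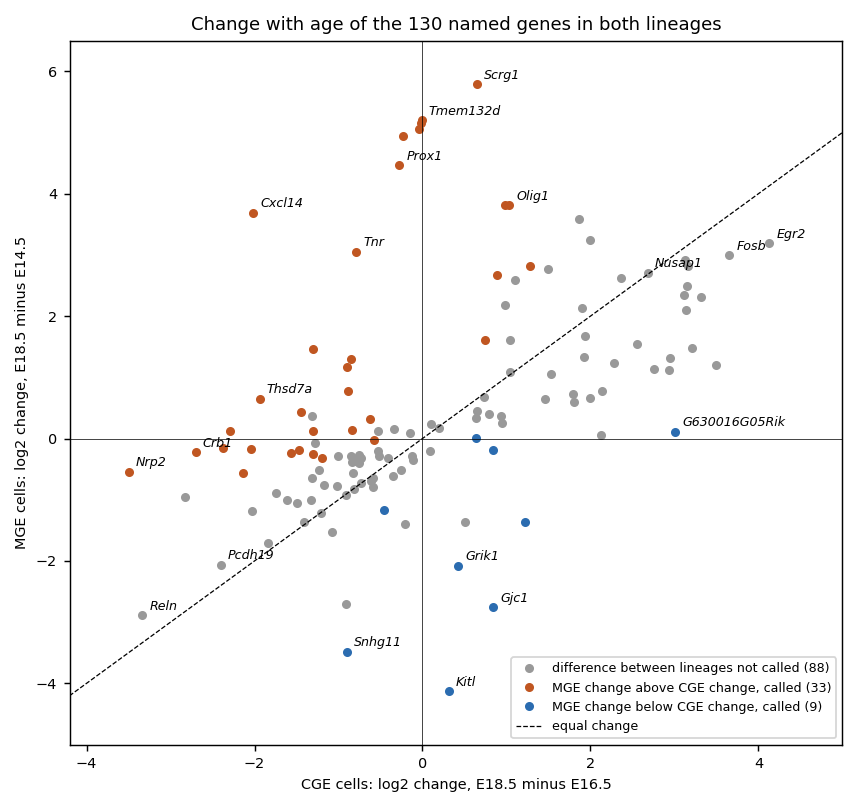
Log2 change from E16.5 to E18.5 in CGE cells (x axis) against that from E14.5 to E18.5 in MGE cells (y axis) for the 130 named genes, with the dashed line at equal change and colour for the 42 genes whose changes differed by the test (33 with the MGE change above, 9 below). Mitosis and immediate early genes such as Nusap1, Egr2 and Fosb lie in the upper right and are grey, Nrp2 and Crb1 lie left of the line, and Kitl and Gjc1 lie below it.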

How the data were processed

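RNA of sorted cells was hybridised to 12 Affymetrix Mouse430_2 arrays, 3 per group. The authors deposited normalised log2 intensities per probe set, made in Bioconductor by the methods and with MAS5 by the submitters' processing notes. Which algorithm applies, and in which version, neither source settles. Of 27094 probe sets, 34 were controls, 22339 had 1 gene symbol, 571 several and 4150 none. Probe sets above their array's 40th percentile on at least 3 of 12 arrays were kept (16000), and the brightest stood for its gene. The test was limma (3.58.1, under R 4.3.3), with 1 mean per group over 12 arrays (8 residual and 3.60 prior degrees of freedom), two-sided, with Benjamini-Hochberg adjustment over 8791 genes. Named genes were the 12 largest increases and decreases among called genes without overlap, up to 4 called members of each list (or the 2 nearest), fixed lineage genes, and the 6 largest differences between lineages each way. Other members were named to describe their list. Members and lists were chosen with earlier results of these data known. The fit was tested on simulated data. The number of arrays limits the precision. Promoter sequences are RefSeq's.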

Additional observations from a re-analysis of the deposited data

Results flagged for a closer look

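Of the 130 named genes, 42 changed differently in CGE and MGE cells by the interaction term of the limma fit at an adjusted p under 0.05. Over all genes tested the share was 8.62%. The named genes include those with the largest such differences and the largest CGE changes, so the count follows in part from the choice. The value given for each of the 42 is the MGE change minus the CGE change on the log2 scale, and the lineages were followed over different spans of time. For 33 genes the value was positive. Among genes that fell in CGE cells it was 2.96 for Nrp2, 2.48 for Crb1, 2.41 for Chrna7, 2.21 for Grin2d, 2.59 for Thsd7a, 1.86 for Chst15, 1.56 for Stk33 and 5.71 for Cxcl14. Crb1, Chrna7 and Stk33 lay below the filter level on every MGE array. Adhesion and guidance genes among those that fell in CGE cells were Cdh4 (2.77), Cntnap4 (1.32), Lrrc4 (1.44), Lgi1 (1.67), Epha3 (1.04) and Jag1 (0.88). Receptor, channel and release genes were Gabra2 (1.29), Kcnq3 (2.08) and Cplx2 (0.98), and Tapbp (0.56) and Bcl2 (0.94) were others. Kcnq3 lay below the filter level on every CGE array.

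Among glial and oligodendrocyte precursor genes, Olig1 (2.78), Slc1a3 (2.83), Sox9 (1.54) and Fabp7 (0.87) rose in both lineages, and Scrg1 (5.14) rose in MGE cells and was not called in CGE cells. Tnr (3.84) rose in MGE and fell in CGE cells, and Slc1a2 (1.88) fell in CGE cells and was not called in MGE cells. Olig1 and Tnr lay below the filter level on every CGE array, so their changes in CGE cells are within dim signal. The CGE call of Slc1a3 was lost in 12 of 23 alternatives. Tmem132d (5.21), Vit (5.18), Kcnj16 (5.18), Calcrl (5.11), Prox1 (4.75), Adcyap1r1 (2.15) and Maml2 (1.78) were the rest with a positive value. Tmem132d, Vit, Kcnj16 and Calcrl lay below the filter level on every CGE array and passed the filter only through MGE arrays. For 9 genes the value was negative. These were Kitl (-4.43), Gjc1 (-3.61), G630016G05Rik (-2.90), Tead2 (-2.59), Snhg11 (-2.58), Grik1 (-2.50), Hsd17b7 (-1.03), Nr2f1 (-0.71) and Mfng (-0.64). G630016G05Rik lay below the filter level on every MGE array, and Kitl averaged below it in CGE cells.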

How the results depend on the processing

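Fitted on the 6 CGE arrays alone, calls numbered 75 higher and 100 lower (66 and 73 at 2-fold). With array weights they numbered 259 and 287. Without E16.5 replicate 3 and E18.5 replicate 2 together, chosen after seeing the data, they numbered 59 and 86 (48 and 44 at 2-fold), of which 139 were shared with the 959 calls reported. Leaving out each array in turn gave 149 to 442 higher and 225 to 765 lower, and at 2-fold 102 to 266 and 80 to 189. The difference between lineages gave 452 to 686 genes with the MGE change above and 82 to 206 below, and 251 below with median centring and 258 with array weights. At an unadjusted p under 0.05, 2333 genes differed. Same-numbered arrays did not deviate together (r = -0.17, -0.15 and 0.13). With the replicate block, 357 genes were higher and 512 lower. Of 2978 values of the 130 named genes under alternatives, 2630 kept their side of the threshold, 324 lost it and 24 gained it. Among values called in the main fit or in the alternative, 0 changed sign. Some genes not called did change sign, such as Sst (-1.67 to 0.25) and Lhx6 (-0.39 to 0.26). Of 98 named genes called, 26 kept the call in every alternative. Signals below the filter level limit what can be said of dim genes.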

Other observations

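Some genes outside the lists also moved, and were picked after their values were seen. Rest, the repressor of neuronal genes outside the nervous system and in progenitors, read 8.48, 8.25 and 8.52 at E16.5 and 6.59, 6.82 and 6.54 at E18.5 in CGE cells (-1.76 ± 0.13, adjusted p = 5.9e-05), and differed by -0.75 in MGE cells. Insm1, a zinc finger factor of neurogenic progenitors, read 10.34, 9.67 and 9.70 and then 10.89, 12.23 and 11.48 (1.63 ± 0.32, adjusted p = 0.01), and Pou3f2, a POU factor, rose by 1.68 ± 0.26 (adjusted p = 0.00406). Foxm1, the transcription factor that activates mitosis genes, read 6.62, 6.38 and 5.11 and then 8.24, 9.55 and 8.54 (2.74 ± 0.44, adjusted p = 0.00461). The cell cycle inhibitor Cdkn2c rose as well, by 2.37 ± 0.36 (adjusted p = 0.00364).

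Igsf11, an adhesion gene, read 6.49, 5.48 and 4.99 and then 7.84, 9.07 and 8.16 (2.71 ± 0.36, adjusted p = 0.002), while its change in MGE cells was 0.23. Sox8 rose by 2.17 ± 0.37, from 5.70, 5.89 and 6.36 to 9.01, 7.65 and 7.79, and by 5.25 in MGE cells. Tenm4, a teneurin, fell by 1.78 ± 0.23 (adjusted p = 0.00185).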
